A study of Mus musculus with 2 samples.

Results

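Of the 1078 intergenic regions listed as transcribed more strongly in limb than in heart, 502 (46.6%) lay within 10000 bp of another region of the list. These clustered limb regions were chosen by position alone: the gap from the end of one region to the start of the next, with overlap counted as 0. Regions linked by such gaps formed 155 domains on 20 chromosomes. The 576 limb regions with no neighbour at this distance are called isolated below, and the tissue lists of the study together held 1912 regions, 834 of them from the heart list.

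Total RNA was taken from heart and from limb of CD-1 mouse embryos at embryonic day 11.5, depleted of ribosomal RNA and sequenced. Each tissue was 1 sample pooled from several embryos, so the 2 libraries give no estimate of the spread between embryos and no test between tissues was made. Folds below are the limb share of its library total over the heart share, with an exact Clopper-Pearson 95% interval that covers counting error only. The library totals behind the deposited RPKM values (reads scaled by region length and library total) were 192488089 in limb and 222362239 in heart. They are implied by the counts, RPKM values and lengths, and are smaller than the total reads the study reports. The lists hold no genes, so the labelled tissues could not be checked against marker genes, and fewer cells of a type cannot be told apart from less RNA per cell.

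Transcription outside genes is common in developing tissues. Active enhancers, the distant switches that drive genes in chosen cell types, are often transcribed into short-lived noncoding RNA, and such RNA is often lost when only polyadenylated RNA is captured. Reads between genes can also come from unannotated noncoding genes, from precursors of small RNAs, or from transcripts that run past an annotated end or begin ahead of an annotated start. The deposited lists give no strand, so these kinds of transcript could not be told apart by orientation.

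The windows below show what these regions look like as sequence. Each is 300 bases (277 in the Pi15 domain, where the region is shorter) around the centre of the region with the highest limb RPKM in its domain, in mm9 (NCBI build 37), forward strand. The first 6 are from the domains with the most regions, and that of the Tbx15 domain was added after its values were seen because no heart read fell there. Domains are named by the closest protein-coding start, which does not make that gene their target. Capitals mark letters of a motif searched on both strands, and a window in lower case throughout held none of them.
Kalrn domain, chr16:34552222-34552521: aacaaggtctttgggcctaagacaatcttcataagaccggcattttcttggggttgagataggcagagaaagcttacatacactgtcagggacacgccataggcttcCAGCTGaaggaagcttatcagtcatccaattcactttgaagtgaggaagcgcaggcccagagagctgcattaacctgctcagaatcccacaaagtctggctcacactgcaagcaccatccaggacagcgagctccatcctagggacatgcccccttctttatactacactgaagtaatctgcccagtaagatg
Xirp2 domain, chr2:67418839-67419138: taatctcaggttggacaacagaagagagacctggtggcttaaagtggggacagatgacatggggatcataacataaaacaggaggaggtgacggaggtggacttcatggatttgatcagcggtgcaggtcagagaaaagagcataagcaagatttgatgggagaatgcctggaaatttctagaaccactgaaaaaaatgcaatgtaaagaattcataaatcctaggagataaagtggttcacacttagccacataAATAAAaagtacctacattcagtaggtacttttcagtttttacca
Twist1 domain, chr12:34656058-34656357: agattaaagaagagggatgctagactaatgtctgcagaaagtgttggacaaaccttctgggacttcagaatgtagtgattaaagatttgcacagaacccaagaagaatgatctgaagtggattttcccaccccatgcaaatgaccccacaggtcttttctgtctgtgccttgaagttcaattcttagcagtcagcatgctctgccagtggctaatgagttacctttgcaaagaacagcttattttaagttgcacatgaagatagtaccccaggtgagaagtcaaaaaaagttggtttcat
Dsel domain, chr1:113753380-113753679: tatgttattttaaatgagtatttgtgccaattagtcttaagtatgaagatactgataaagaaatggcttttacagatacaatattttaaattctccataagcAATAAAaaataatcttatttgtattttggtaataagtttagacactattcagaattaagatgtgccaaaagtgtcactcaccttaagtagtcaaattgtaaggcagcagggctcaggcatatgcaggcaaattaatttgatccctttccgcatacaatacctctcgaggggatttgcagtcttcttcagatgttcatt
Nhsl1 domain, chr10:18057660-18057959: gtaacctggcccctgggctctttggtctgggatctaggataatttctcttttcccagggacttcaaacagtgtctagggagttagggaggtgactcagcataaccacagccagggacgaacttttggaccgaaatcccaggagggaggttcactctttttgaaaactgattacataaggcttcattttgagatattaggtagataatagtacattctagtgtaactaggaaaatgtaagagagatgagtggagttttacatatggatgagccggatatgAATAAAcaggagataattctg
Pi15 domain, chr1:17663837-17664113: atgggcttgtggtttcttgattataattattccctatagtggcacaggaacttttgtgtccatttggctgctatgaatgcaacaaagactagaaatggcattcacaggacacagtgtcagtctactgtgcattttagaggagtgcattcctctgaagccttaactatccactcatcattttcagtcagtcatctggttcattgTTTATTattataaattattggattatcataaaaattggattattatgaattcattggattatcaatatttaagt
Tbx15 domain, chr3:99158826-99159125: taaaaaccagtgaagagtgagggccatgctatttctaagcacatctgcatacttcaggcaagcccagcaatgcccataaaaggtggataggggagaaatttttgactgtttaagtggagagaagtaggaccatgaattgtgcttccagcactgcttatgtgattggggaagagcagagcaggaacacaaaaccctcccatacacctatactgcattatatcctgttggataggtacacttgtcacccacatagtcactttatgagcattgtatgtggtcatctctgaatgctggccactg

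In these windows the capitals are an E-box (CAGCTG) in the Kalrn domain and the poly(A) signal letters AATAAA, or their complement, in the Xirp2, Dsel, Nhsl1 and Pi15 domains. The Twist1 and Tbx15 windows held none of the 6 motifs. The region around the Tbx15 window had 78 limb reads and 0 heart reads, and the one around the Twist1 window had 91 limb reads and 23 heart reads. They were close in limb reads and differed in heart.

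Most domains were small. There were 100 domains of 2 regions, 25 of 3 and 30 of at least 4, and the largest held 31. The 22 domains of at least 5 regions held 195 members, 38.8% of all, and 14820 of their 42577 limb reads. Chromosomes 1 and 13 had 12 domains each, the most, and chromosome 7 had 2. Domains spanned from 1314 to 61458 bp with a median of 4053 bp, and in the median domain regions covered 44.9% of the span.

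Neighbours inside a domain were mostly close. The median of the 347 gaps was 997 bp (quartiles 299 and 2803 bp), 174 gaps were at most 1000 bp and 39 exceeded 5000 bp. In 29 cases the neighbours touched or overlapped, so a read may count in both and sums over such regions may hold it more than once. Of the 318 gaps above 0 bp, 22 touched an annotated exon and 49 an annotated gene, so most of the sequence between neighbours was also free of annotated exons.

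Regions near the 10000 bp limit were found by the gap of each to its nearest neighbour. Wider gaps inside a domain and gaps between domains do not enter this measure. By it, the members closest to the limit were a pair 9215 bp apart downstream of Shox2. They had 17 limb reads each and 3 and 2 heart reads. Next was a region with 17 limb and 4 heart reads near Tsga14, at a gap of 9110 bp. Just outside the limit was a pair 10328 bp apart on chromosome 11, close to Tmem107 and 9330160F10Rik. This pair had 1069 and 1235 limb reads and 280 and 362 heart reads. A region on the X chromosome followed at 10410 bp, with 23 limb reads and 1 heart read. The pair on chromosome 11 was far deeper than the members on the inner side.

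Clustered regions were longer than isolated ones. Their median length was 757 bp (95% interval of the median 676 to 849, n = 502) against 340 bp (318 to 356, n = 576), and their median limb reads were 56 (51 to 60) against 31 (27 to 36). Per length the sets were close. The median limb RPKM was 0.349 (0.338 to 0.369) in clustered and 0.335 (0.322 to 0.358) in isolated regions, and the median heart RPKM was 0.0933 (0.0826 to 0.104) against 0.0807 (0.0689 to 0.0924). The medians of the sets thus differed more in length and reads than in reads per length. These intervals treat regions as independent, which neighbours in a domain are not.

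The higher limb level itself is no finding, because the study kept a region only if a z-test on the reads of both libraries favoured limb. The size of the excess is a description. A fold of at least 4, with 3 reads put in where heart had none, is called here. Of the 502 members, 240 (47.8%) were called, beside 50.3% of all 1078 limb regions and 302 (52.4%) of the isolated ones. The members' share is near that background and is no result about them. The median fold was 3.85 (3.52 to 4.19) in members, 4.20 (3.85 to 4.46) in isolated regions and 4.04 (3.85 to 4.29) in all limb regions.

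Depth set which folds could be seen. The 89 members with 10 to 19 limb reads had a median fold of 5.78 and none under 3.14, while the 107 members with at least 100 reads had a median of 2.74 and reached down to 1.50. Isolated regions followed the same course, with medians of 5.39 and 2.21 in those bins. Among members, 55 had a fold under 2, 105 a fold of at least 8, and 65 (13.0%) had no heart reads, beside 11.3% of isolated regions. In a region of the median length of 757 bp a single read was worth 0.00686 RPKM in limb and 0.00594 in heart.

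**Figure D1:**
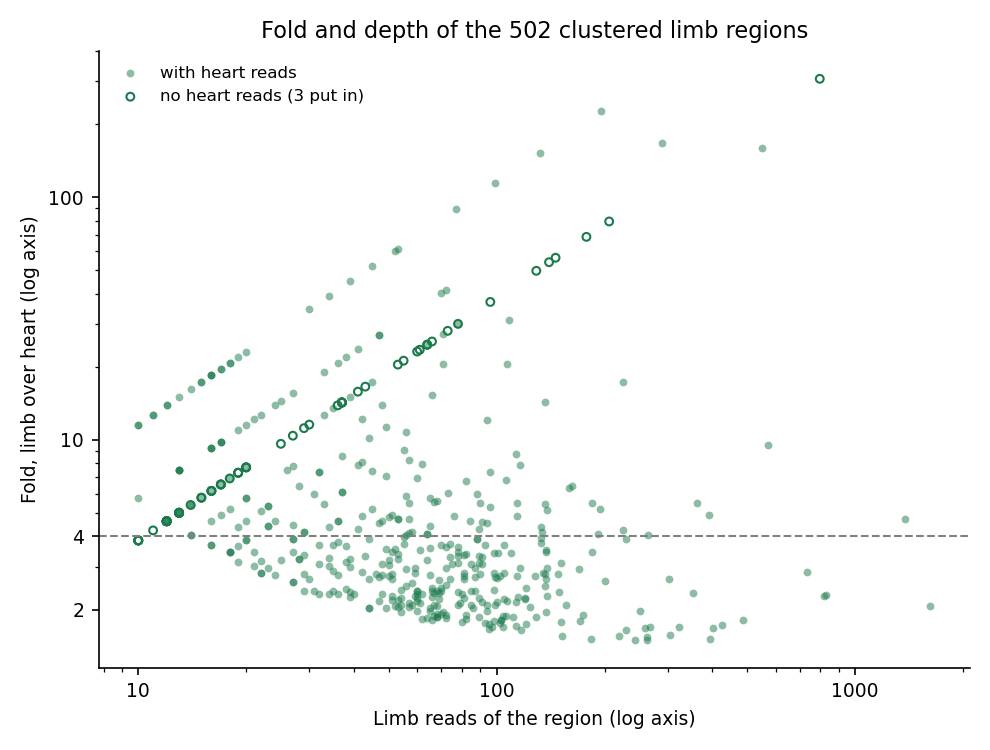
Fold of limb over heart (log axis) against limb reads (log axis) for the 502 clustered regions, with open symbols for regions without heart reads, where 3 reads were put in, and a dashed line at 4-fold. The lower edge falls from left to right, from 3.14 at under 20 reads to 1.50 at 100 reads or more, and the straight rows of points are regions with the same small number of heart reads.

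Regions of a domain resembled each other more than regions of different domains. Between next neighbours (347 pairs) the median absolute log2 difference was 0.36 in limb RPKM and 0.49 in fold. Between members of different domains (124397 pairs) it was 0.59 and 1.03. The same split shows in the calls: in 57 domains every region was at least 4-fold higher in limb, in 57 none was, and in 41 regions lay on both sides. No test was made of this, and the part of shared transcripts or of overlapping neighbours was not tested.

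Summed over its regions, the median domain had a fold of 3.81 (3.08 to 4.36, n = 155), and 74 domains reached 4-fold. The range ran from 1.61-fold to 1851-fold. In 30 domains no region had more than 3 heart reads, and 8 had no heart read at all. The 5 domains with the most limb reads held 21.5% of the members' limb reads.

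**Figure D2:**
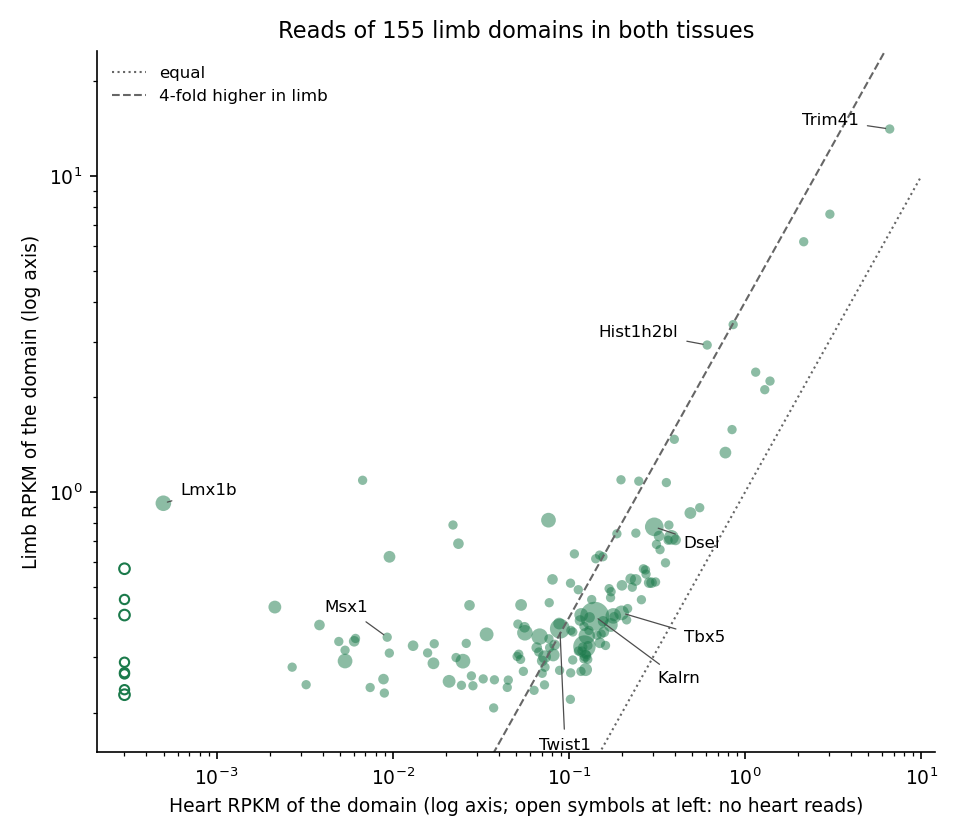
Limb RPKM against heart RPKM of the 155 domains (both axes logarithmic), from summed reads and lengths, with larger symbols for more regions and open symbols at the left edge for the 8 domains without heart reads. Most domains sit between 0.2 and 1 RPKM in limb while heart spans several orders of magnitude, and the Lmx1b domain stands apart with 0.923 RPKM in limb and a single heart read.

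Genes of limb development were looked for first among the neighbours, from lists of genes chosen with earlier results of these data known. Of 155 domains, 11 (7.10%) with 52 regions had one of the 77 listed limb patterning transcription factors as the closest protein-coding start, namely Lmx1b, Mecom, Msx1, Prrx1, Shox2, Tbx15, Tbx5, Tshz2, Twist1 and Zfhx3. Of the 576 isolated regions, 15 (2.60%) did, counted as single regions and not as domains. All 11 domains of the patterning list except that of Tbx5 were called, with a median fold of 12.7, beside 74 called of all 155 domains. Because of how the list was chosen, these shares and folds are a description only. Limb signalling genes were next to 2 domains (Epha7 and Fgfr1), limb muscle precursor genes to 1 (Eya4), cartilage and skeletal genes to 1 (Trps1) and imprinted genes to 2 (Grb10 and Rtl1). No domain had a listed heart development gene, or a listed marker of epidermis, blood, vessel or nerve, as its closest start. Isolated regions were close to these small shares: signalling genes neighboured 1.04% of them against 1.29% of domains, imprinted genes 1.22% against 1.29%, heart genes 0.174% and markers of other cells 0.347%. For these lists nothing is read from the counts.

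The domain ahead of Lmx1b, the LIM homeodomain factor that gives the limb its dorsal identity, had the highest fold. It covered chr2:33557232-33571827 with 8 regions, and its first region lay 61202 bp upstream of the Lmx1b start. Its last region, at the other end, was 74033 bp from that start and 2592 bp from the start of the noncoding transcript 9430024E24Rik. The closest coding gene body was not that of Lmx1b but that of Fam125b, which ended 13646 bp from the domain. In order along the chromosome, the limb reads were 195, 146, 206, 41, 20, 19, 178 and 797. Heart had 1 read in the first region and 0 in the other 7. The sums of 1602 and 1 reads gave a fold of 1851 (interval 332 to 73141). The regions at both ends carried most of the reads, and the last held 49.8% of them at 2.35 RPKM, while the middle 3 had 0.283 to 0.370 RPKM.

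The domain at Twist1, a basic helix-loop-helix factor of limb mesenchyme, had 14 regions and enclosed the gene. It lay at chr12:34638574-34667258, with 2 regions ahead of the start, the nearer at 268 bp, and 12 past the end. Limb reads ran from 14 to 133 per region and heart reads from 3 to 40. Summed, 986 limb and 274 heart reads gave 4.16-fold (3.63 to 4.77), with single regions between 2.83 and 7.39 and 9 of 14 called. None of the regions stood out in limb RPKM, which ran from 0.251 to 0.631. A heart region of the other list, with 188 heart and 128 limb reads, lay within the same span.

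Tbx5, the T-box factor needed for the forelimb and for the heart, had 7 regions upstream, at chr5:120246624-120260850 and 23822 bp from the start at the closest. Their limb reads were 103, 82, 42, 113, 89, 89 and 88, and their heart reads were 66, 50, 17, 76, 46, 55 and 26. The fold of the sums, 606 against 336, was 2.08 (1.82 to 2.39), and no region reached 4-fold. Both tissues thus had reads in every region of this domain, unlike the Lmx1b domain.

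Zfhx3, a large zinc finger and homeodomain factor, had 8 regions within 1657 to 18387 bp upstream of its start, at chr8:111219853-111236887. The limb reads were 13, 20, 17, 114, 33, 15, 65 and 10, and the heart reads 0, 5, 1, 27, 3, 3, 13 and 0. The sums of 287 and 52 gave 6.38-fold (4.73 to 8.74), and 7 of 8 regions were called.

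The other patterning factors had domains of 2 or 3 regions, at varied positions. Tbx15, a T-box factor of limb and skeletal mesenchyme, had 3 regions starting 411 bp past its end. They had 78, 17 and 12 limb reads and no heart read. With 3 heart reads put in, the sums gave 41.2-fold, and the interval began at 32.9. Shox2, the factor of proximal limb bone growth, had 2 regions 2870 bp past its end with 47 and 20 limb reads and 2 and 1 heart reads (25.8-fold, 8.46 to 128). It was also closest to the distant pair named above, 315542 bp from its start. Msx1, a homeodomain factor of the distal limb, lay inside a domain with 78 and 19 limb reads and 3 and 0 heart reads (37.4-fold, 12.4 to 184). Prrx1, a mesenchymal homeodomain factor, had 20 and 24 limb reads and 2 and 2 heart reads in 2 regions starting 995 bp past its end (12.7-fold, 4.63 to 48.7). That distant Shox2 pair had 34 limb and 5 heart reads in all (7.86-fold, 3.06 to 25.7). In the other domains of these 4 genes the heart sum was at most 4 reads.

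Mecom, a zinc finger factor, had 2 regions 826 bp past its end with 55 and 185 limb reads and 16 and 39 heart reads (5.04-fold, 3.75 to 6.89). Tshz2, a teashirt zinc finger factor, had 61 and 41 limb reads and 0 and 2 heart reads 21013 bp upstream of its start (58.9-fold, 15.9 to 493). Trps1, a GATA-type repressor of cartilage growth, had 4 regions 261 bp past its end, with 113, 90, 94 and 44 limb reads and 15, 19, 9 and 5 heart reads (8.21-fold, 6.05 to 11.4). Eya4, a transcriptional co-activator, had 14 and 73 limb reads and 3 and 14 heart reads 2407 bp past its end (5.91-fold, 3.49 to 10.6). The FGF receptor gene Fgfr1 had 41 and 23 limb reads and 11 and 5 heart reads 286 bp past its end (4.62-fold, 2.64 to 8.56). The pair closest to Epha7, an ephrin receptor gene, lay 617311 bp upstream of it and had 22 and 12 limb reads and 5 and 3 heart reads (4.91-fold, 2.23 to 12.3).

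**Figure D3:**
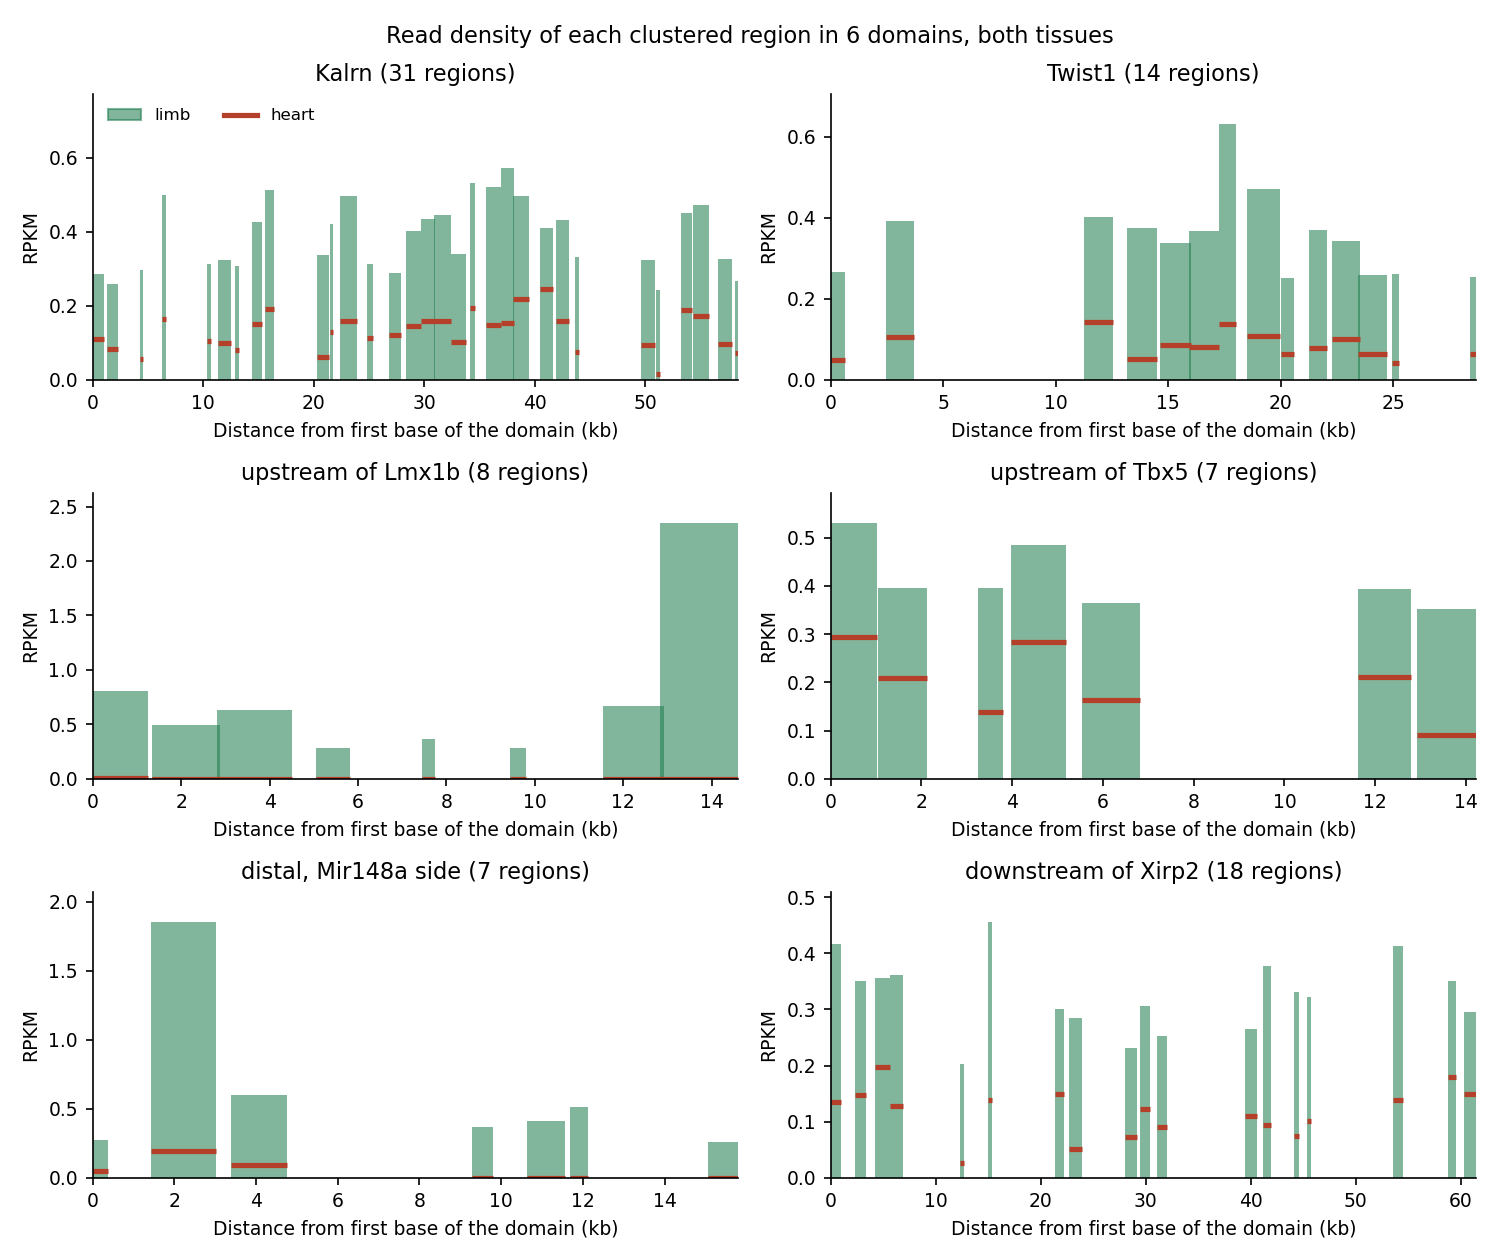
RPKM of each region along 6 domains, limb as green blocks as wide as the region and heart as red lines, with distance from the first base of the domain in kilobases and a separate vertical scale in each panel. Heart follows limb at a lower level in the Kalrn, Twist1, Tbx5 and Xirp2 domains, is near 0 throughout the Lmx1b domain, and is 0 in the last 4 regions of the distal domain on chromosome 6.

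The largest domains were not those of patterning genes. Kalrn, a gene best known from neurons, held the largest, with 31 regions over 58418 bp at chr16:34514832-34573250. In the annotation used here, 30 of the 31 lay in the first intron of 1 long Kalrn transcript and the last touched its first exon, whereas other long Kalrn transcripts started 632 bp beyond the opposite end of the domain. Limb reads per region ran from 14 to 151 and heart reads from 1 to 70. The sums were 2282 and 913, 2.89-fold (2.67 to 3.12), and 4 of 31 regions were called. Limb RPKM stayed between 0.242 and 0.573 over the whole domain, and no region held more than 6.62% of its reads.

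The next was a domain of 18 regions over 61458 bp beginning 39139 bp past the end of Xirp2, an actin-binding gene of striated muscle, at chr2:67403809-67465267. It had 999 limb and 436 heart reads (2.65-fold, 2.36 to 2.97), with single regions between 13 and 98 limb reads and 2 and 63 heart reads. Like the Kalrn domain it was even, with limb RPKM of 0.203 to 0.455, and 4 of 18 regions were called.

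Dsel, a gene of the dermatan sulfate pathway, had 12 regions from 111 bp past its end at chr1:113727319-113755168. The reads were highest next to the gene, with 302 limb and 131 heart reads, then 828 and 416, in the last 2 regions, against 89 and 33 in the farthest. The sums of 1975 and 897 gave 2.54-fold (2.35 to 2.76), and no region was called, with folds from 2.09 to 3.72. Past the end of Pi15, a peptidase inhibitor gene, 9 regions had 16 to 84 limb and 2 to 21 heart reads each (5.11-fold, 4.05 to 6.51), and 7 were called. Ahead of Nhsl1, related to the Nance-Horan gene, 9 regions had 13 to 115 limb and 3 to 59 heart reads (2.78-fold, 2.33 to 3.32), and 3 were called.

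Fat3, an atypical cadherin, was the closest coding start of 4 domains with 19 regions, 1251 limb and 623 heart reads in all (2.32-fold). The 2 larger, of 8 and 5 regions, lay 106613 and 60232 bp upstream and had folds of 2.27 (2.0 to 2.58) and 2.20 (1.79 to 2.72). Kazn, the gene of a desmosome-associated protein, was the closest coding start of 3 domains with 15 regions and 488 limb and 57 heart reads (9.89-fold). Its 2 larger domains, of 7 and 5 regions, lay 157048 and 191428 bp upstream, and every region in both was called, with folds of 11.7 (6.43 to 23.2) and 12.1 (7.85 to 19.4). The smallest domain of each gene differed more, with 4.14-fold (2.14 to 8.62) at Fat3 from 43 and 12 reads, and 6.67-fold (4.22 to 11.02) at Kazn from 127 and 22 reads. At each gene the next domain lay less than 20000 bp away, so a limit of 20000 bp would join them.

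Some of the most limb-restricted domains lay far from any coding gene. At chr3:6107643-6120847, 499596 bp from the closest coding start (1700008P02Rik) and 218144 bp from any annotated start, 7 regions had 64, 53, 60, 20, 52, 36 and 45 limb reads and 3, 0, 0, 0, 1, 2 and 1 heart reads (54.5-fold, 26.1 to 137). At chr14:25792390-25802239, 476432 bp upstream of Zmiz1, 5 regions had 17, 16, 30, 16 and 96 limb reads and a single heart read in all (202-fold, 35.8 to 8030). All 12 regions of these domains were called.

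A domain of 7 regions on chromosome 6, at chr6:51119714-51135514, changed along its length. It lay 84395 bp from the start of the microRNA gene Mir148a and 102340 bp from that of Gm9953. The first 3 regions had 20, 571 and 159 limb reads and 4, 69 and 29 heart reads. The last 4 had 37, 73, 43 and 37 limb reads and no heart read. The sums gave 10.7-fold (8.67 to 13.2), and 60.7% of the limb reads were in the second region.

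Past the end of Pdgfc, a platelet-derived growth factor gene, 6 regions from 789 bp on had 136, 12, 66, 41, 53 and 16 limb reads and 11, 0, 5, 6, 13 and 1 heart reads (10.4-fold, 7.36 to 15.1), all called. Lower folds were seen in the domains of 6 regions ahead of Agpat6, a glycerolipid synthesis gene (307 and 102 reads, 3.48-fold, 2.77 to 4.39), of 5 regions distal to Tmem74 (227 and 70 reads, 3.75-fold, 2.85 to 4.97), and of 5 regions ahead of Asxl3 (258 and 72 reads, 4.14-fold, 3.18 to 5.45). In these 3, regions lay on both sides of 4-fold.

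**Figure D4:**
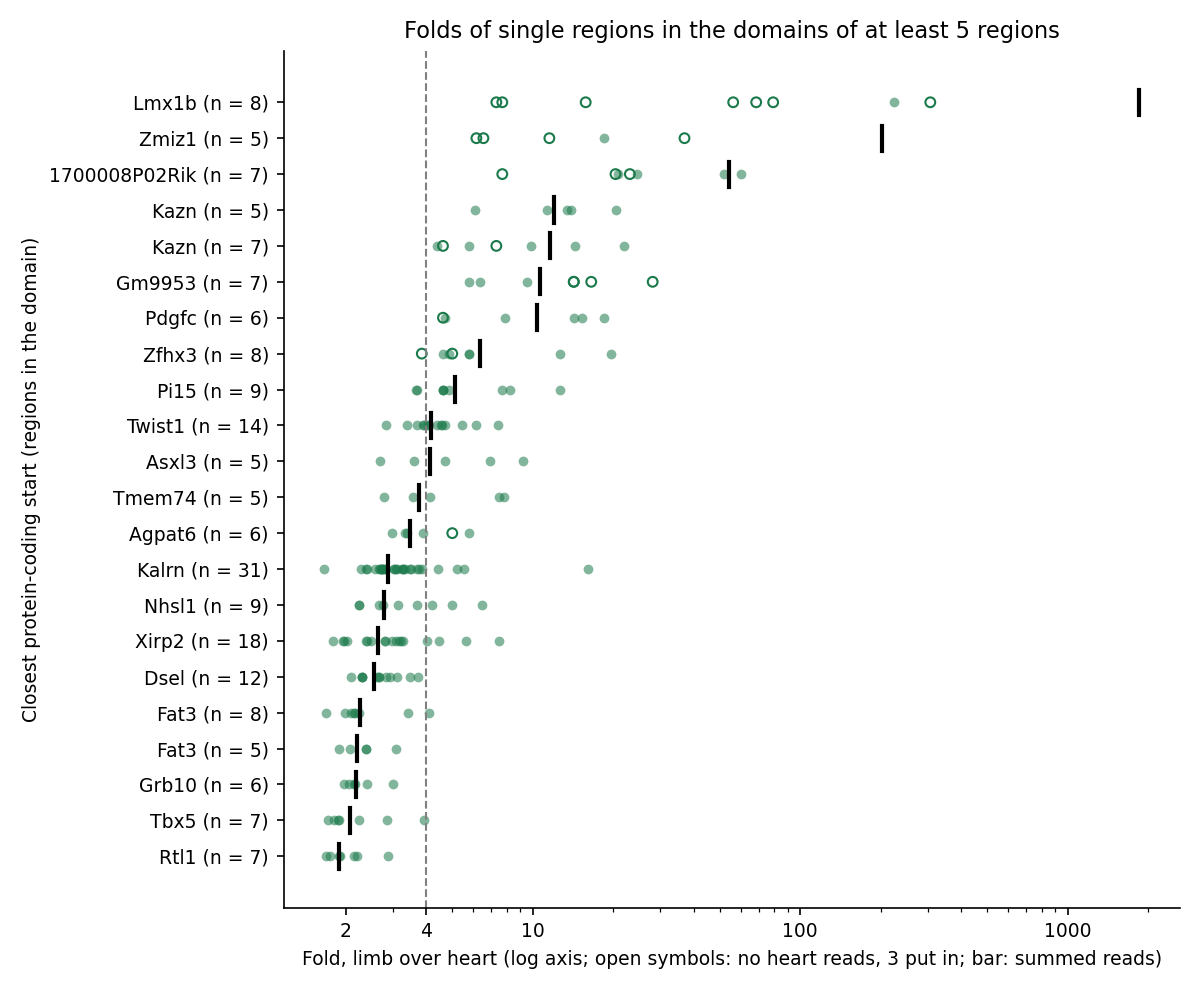
Fold of limb over heart (log axis) of each region in the 22 domains of at least 5 regions, ordered by the fold of the summed reads (black bars) and named by the closest protein-coding start, with open symbols for regions without heart reads and a dashed line at 4-fold. In 7 domains all regions lie past the line and in 5 none do; a bar can lie to the right of its open symbols because each open symbol has 3 heart reads put in.

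Domains without heart reads, besides that of Tbx15, included one that began inside Meox2, a homeobox gene of limb muscle precursors, and ran past its end. Its 3 regions, at chr12:37906234-37915531, had 140, 64 and 12 limb reads, and the first lay within the annotated gene and touched an exon. With 3 heart reads put in, the sums gave 83.2-fold, and the interval began at 67.1. The closest coding start was that of Agmo at 52695 bp, so it was not counted with the muscle list. Folds of the others also have 3 heart reads put in. Near Thap1 (115452 bp), 2 regions had 66 and 13 limb reads (30.4-fold, interval from 24.2). At 180023 bp from G930045G22Rik, 2 regions had 36 and 37 (28.1-fold, interval from 22.3). At 3988 bp past the end of Vwde, 3 regions had 12, 12 and 10 (13.1-fold, interval from 10.1). With at most 12 reads per region, the Vwde domain was near the smallest count the list allows, which was 10.

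Depth and fold did not go together among the deepest domains. The Lmx1b domain, one of the 5 with the most limb reads, had the highest fold, while others of the 5 had low ones. Ahead of Trim41, a ubiquitin ligase gene, a domain of 2 regions had 110 and 1620 limb reads and 37 and 901 heart reads (2.13-fold, 1.97 to 2.31). The second held 93.6% of the limb reads at 26.9 RPKM, and its own closest coding start was that of Trim7, 2126 bp away. Among the histone genes Hist1h2bl, Hist1h2ai and Hist1h3h, whose transcripts lack a poly(A) tail, 2 regions had 194 and 1379 limb reads and 43 and 336 heart reads (4.80-fold, 4.28 to 5.38). The lowest folds of all domains were 1.61 (1.41 to 1.85) past the end of Dcun1d5, 1.62 (1.36 to 1.93) past the end of Trim7 and 1.63 (1.44 to 1.85) past the end of the ribosomal protein gene Rpl15. Even there the interval lay above 1, as the selection of the list requires.

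Imprinted genes, expressed from one parental copy, neighboured 2 domains of low fold. Ahead of Grb10, an adaptor that restrains growth, 6 regions had 113, 39, 94, 85, 47 and 57 limb reads and 61, 15, 55, 41, 25 and 32 heart reads (2.19-fold, 1.87 to 2.59). One of them overlapped an annotated copy of the U1 small nuclear RNA, whose many copies make read placement uncertain. In the microRNA cluster around Mir379, upstream of Rtl1, 7 regions had 900 limb and 552 heart reads (1.88-fold, 1.69 to 2.10). No region of either domain was called.

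Counted by region, clustered regions lay farther from annotated starts than isolated ones. The median distance to the closest start of any transcript was 19615 bp (15723 to 22625) in members and 6685 bp (5098 to 8322) in isolated regions. Members of a domain share a position, so large domains count many times and the interval of the members is too narrow. Counted once per domain, from the span of the domain, the median was 10691 bp, closer to that of the isolated regions. Only 31 members (6.18%) were within 1000 bp of a start, against 145 (25.2%) of the isolated regions, and 322 (64.1%) were over 10000 bp away, against 237 (41.1%). At the far end the sets were closer: 103 members (20.5%) and 88 isolated regions (15.3%) lay over 100000 bp from a coding start.

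Relative to the closest coding gene, 296 members (59.0%) lay past the end, 172 (34.3%) ahead of the start, and 34 (6.77%) inside it. Within 10000 bp of that gene, 186 members (37.1%) were past the end and 52 (10.4%) ahead of the start. Among isolated regions these shares were 37.5% and 31.8%. The shares differed between the sets mainly ahead of the start. Counted by domain, 94 of 155 lay past the end of the closest coding gene, 71 of them within 10000 bp, and 49 lay ahead of the start, 17 of them within 10000 bp. Domains enclosing or within a coding gene numbered 12.

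**Figure D5:**
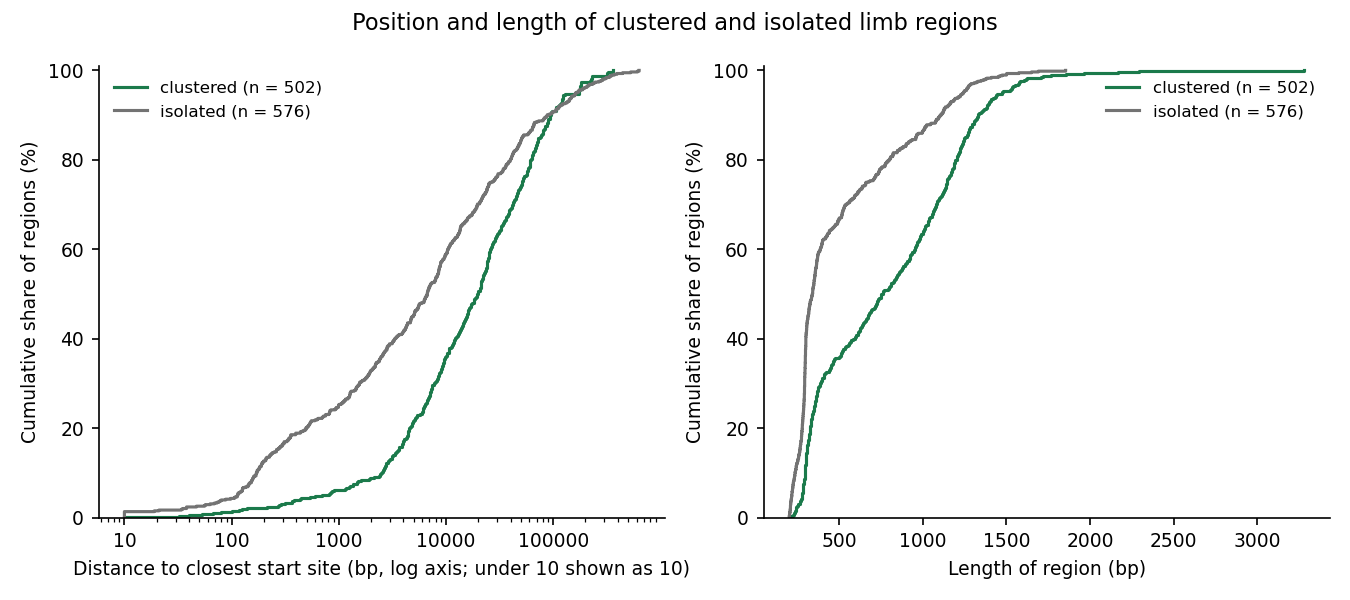
Cumulative share of clustered and isolated limb regions by distance to the closest start site (left, log axis in bp) and by length (right, bp). The clustered curve lies to the right in both panels, with medians of 19615 against 6685 bp in distance and of 757 against 340 bp in length, and the distance curves meet near 100000 bp.

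Few members overlapped annotation, as the filter of the study requires. By the annotation used here 37 of 502 (7.37%) lay in an annotated gene, 31 of them in Kalrn, and 6 touched an exon. Only 3 domains had a region of the heart list within 10000 bp, at Twist1, near Ppm1h and near Zbtb9. Of single members, 13 (2.59%) did, beside 5 isolated regions (0.868%). Most of these members were in the Twist1 domain and neighboured the same heart region, so they are not separate cases.

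In base composition members were slightly poorer in G and C, with a median of 41.9% (41.2 to 42.5) against 43.9% (43.1 to 44.7) in isolated regions. The ratio of observed to expected CpG exceeded 0.5 in 56 members (11.2%) and 136 isolated regions (23.6%). CpG-rich sequence is typical of promoters, and the members were also less often near annotated starts.

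Motif letters were counted on both strands of the central window of up to 300 bases. The homeodomain palindrome TTAATTA was in 33 members (6.57%), spread over 29 domains, against 3.30% of isolated and 4.82% of all limb regions. The E-box CAGCTG, bound by basic helix-loop-helix factors such as Twist1, was in 57 members (11.4%) against 12.8% and 12.2%. The poly(A) signal letters AATAAA were in 187 members (37.3%) against 30.7% and 33.8%. The posterior HOX letters CCAATAAA, which contain AATAAA, were in 7 members (1.39%) against 2.26% and 1.86%, and the T-box letters AGGTGTGA in 3 (0.598%) against 0.868% and 0.742%. The GLI letters GACCACCCA were in no member window and in 1 isolated one. Isolated regions were shorter, so fewer of their windows had the full 300 bases (359 of 576 against 443 of 502), and within full windows TTAATTA was in 6.55% of members and 3.06% of isolated regions. A match is letters only, and no binding was measured.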

How the data were processed

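Total RNA of 1 pooled heart and 1 pooled limb sample was analysed. The authors filtered reads with CASAVA 1.8 (per the submitters' processing notes and the methods), aligned them with Bowtie2 (version not given in the sources used here) to mm9, dropped repetitive reads, extended alignments, joined enriched windows with USeq, removed regions touching known genes, mRNAs or ESTs, and kept those that differed between tissues at a z-test p under 0.01. They deposited raw read counts of both tissues for each region. They also deposited RPKM, which scales the counts by region length (end minus start) and library total. Library totals were recovered from these values.

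Coordinates are given as deposited. Regions were joined at gaps of at most 10000 bp, and compared with GENCODE vM1 and the NCBIM37 genome, the build of the files. Members and gene lists were chosen with earlier results of these data known. Named domains were all with at least 5 regions, the 5 with most limb reads, the 5 with most among those without heart reads, the 3 of lowest fold, and up to 15 beside a listed gene, with the regions at the distance limit. A count of 0 allows up to 3 reads, which are 1.35e-06% of the heart and 1.56e-06% of the limb total. Reads without molecular identifiers are not independent molecules, so intervals cover counting error only. With 1 library per tissue no model across regions was fitted. Intervals and calls were tested on simulated data. Python 3.11.15, pandas 2.3.3, numpy 2.4.6, scipy 1.17.1 and pysam were used.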

Additional observations from a re-analysis of the deposited data

How the results depend on the processing

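A gap of 1000 bp gave 291 clustered regions, a largest domain of 11 and 27.4% of the list's limb reads in members (44.4% at 10000 bp). Gaps of 5000, 20000 and 50000 bp gave 460 to 565 regions in 152 to 156 domains. At least 20 limb reads left 387 regions in 118 domains, a median fold of 3.29 and a median limb RPKM of 0.395. A call at 2-fold gave 447 regions, at 8-fold 105 and by the z-test of the methods, which selected the list, 501. The approximate totals of mappable reads outside ribosomal regions gave 258 calls and a median fold of 4.14. The median distance to a start was 25501 bp for coding starts only and 10691 bp over domains, and the median limb RPKM over domains was 0.374. With 1 read in place of 0 there were 245 calls and a median fold of 3.90, and with 1 read added to both counts the median fold was 3.62. No replicate could be left out, and no paired analysis was possible because each tissue has 1 sample. With 1 library per tissue, embryo, dissection and library cannot be told apart from tissue.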

Other observations

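Among genes outside the lists, a few were the closest coding start of more than 1 domain, chosen here after their values were seen. Boc, a cell-surface co-receptor for hedgehog ligands, had 2 domains with 6 regions, 107 limb reads and 7 heart reads (17.7-fold). Sorl1, a sorting receptor gene, had 2 domains of 3 regions, one with 145 limb reads and 3 heart reads (55.8-fold, interval 18.7 to 274) and the other with 306 and 22 (16.1-fold, 10.4 to 26.0). Gpc5, the gene of a cell-surface proteoglycan, had 2 domains that differed. The span of the one 39150 bp from its start held the microRNA host gene Mir17hg, though none of its regions lay in that gene. It had 1154 limb reads and 773 heart reads (1.73-fold, 1.57 to 1.89). Its first region was 5.14-fold higher in limb, and the others were 1.51-fold to 1.68-fold higher. The other domain, 287131 bp away, had 120 and 24 reads (5.78-fold, 3.70 to 9.37). Ptma, the gene of prothymosin alpha, had 2 domains of 2 regions, with 298 and 215 limb reads and 58 and 63 heart reads (5.94-fold, 4.47 to 8.01, and 3.94-fold, 2.96 to 5.31). In all, 12 genes had more than 1 domain, and the 155 domains had 140 different closest coding starts.

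Gsc, a homeobox gene of limb and craniofacial mesenchyme, was 3659 bp from a domain of 2 regions with 28 limb reads and no heart read. With 3 heart reads put in, the sums gave 10.8-fold, and the interval began at 8.20. In the heart list 478 of 834 regions (57.3%) met the same distance rule, in 122 domains of up to 27 regions, beside 502 of 1078 (46.6%) in the limb list.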
